A study of Mus musculus with 12 samples.

Results

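RNA of the dendritic layer of hippocampal area CA2 was compared with RNA of the CA2 cell body layer on 6 Affymetrix whole-transcriptome arrays, 3 per layer, chosen by their titles from the 12 arrays of the series. The cell body layer is the stratum pyramidale, where the pyramidal neurons have their somata. The dendritic layer is the stratum radiatum, which their apical dendrites cross. Both pieces came from male mice of the strain labelled Amigo2-GFP C57BL/6J, 6 to 8 weeks old, which carry a green fluorescent reporter named for the CA2 gene Amigo2 and received no treatment besides anesthesia. Per the labels' protocols, 3 mice of separate litters gave the tissue, and 4 pieces were laser-captured from each brain: both layers of CA2 and both layers of CA1. Each piece was pooled from about 20 capture caps holding 5 sections of 8 µm, gave 5 to 30 ng of RNA with an integrity number of 6.9 to 7.5, and entered amplification with 5 to 7 ng. The arrays of a group are numbered 1 to 3, but no label says which mouse a number stands for. The p-values therefore measure the spread between 3 arrays per layer that the protocols trace to 3 mice. What construct drives the reporter is not given in the sources used here, nor whether its fluorescence guided the capture. The 6 CA2 arrays share a run number, so the layers were compared within 1 run.

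CA2 is a small field between CA3 and CA1 that is needed for social memory and is known for pyramidal neurons whose synapses from CA3 resist long-term potentiation. Most RNAs of a pyramidal neuron stay in the soma, where they are made, and a subset is carried along microtubules into dendrites and translated near synapses. The stratum radiatum is not made of dendrites alone. It also holds astrocytes, microglia, oligodendrocytes and their precursors, blood vessels, scattered interneurons and axons, whose RNA is captured together with that of the dendrites.

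Transcripts typical of oocytes, a cell that male mice lack, were present on 3 of the 6 CA2 arrays: cell body array 1, dendritic array 2 and dendritic array 3, called the oocyte-positive arrays here. The median log2 value of 35 oocyte genes was 7.17, 7.18 and 7.08 on these arrays, and between 5.26 and 5.52 on the other 9 arrays of the series. For 31 of the 35 genes, the lowest of the 3 arrays exceeded the highest of the other 9. Bmp15, a growth factor secreted by oocytes, read 8.40, 5.75 and 5.60 on cell body arrays 1, 2 and 3 and 5.60, 8.66 and 8.39 on dendritic arrays 1, 2 and 3. Nlrp14, a maternal gene of the oocyte, read 7.85, 4.82 and 4.46 on the cell body arrays and 5.28, 8.12 and 7.94 on the dendritic arrays. Zp3, which encodes a protein of the egg coat, read 7.85, 6.02 and 5.83 against 5.77, 7.66 and 7.98. Each layer thus holds high and low arrays of these 3 genes, and none of the 3 was called between the layers on all 6 arrays. With the arrays numbered 1 left out, all 3 were called higher in the dendritic layer, Zp3 by 1.90, Bmp15 by 2.85 and Nlrp14 by 3.39. Of the 35 oocyte genes, 2 were called higher in the dendritic layer on all 6 arrays. Rnf114, a ubiquitin ligase gene, read 7.80, 7.83 and 7.63 against 8.17, 8.18 and 8.19 (adjusted p = 0.00152, and 0.135 without the oocyte-positive arrays). Nlrp5, a maternal gene, read 7.17, 6.19 and 5.97 against 7.04, 7.80 and 8.22, which overlap (adjusted p = 0.0307, and 0.0806 with the replicate number as a block). Its call also ended without the oocyte-positive arrays, at a difference of 0.96. On the CA1 arrays, which were not oocyte-positive, Nlrp5 read 6.22, 6.11 and 6.29 in the cell body layer and 7.07, 7.10 and 7.24 in the dendritic layer. Counts over gene lists are therefore also given without these 3 arrays, as are the values of named genes whose call then ends. Such a fit has 2 cell body arrays and 1 dendritic array, called the oocyte-free arrays, and assumes that the lone dendritic array varies like the cell body arrays.

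**Figure D1:**
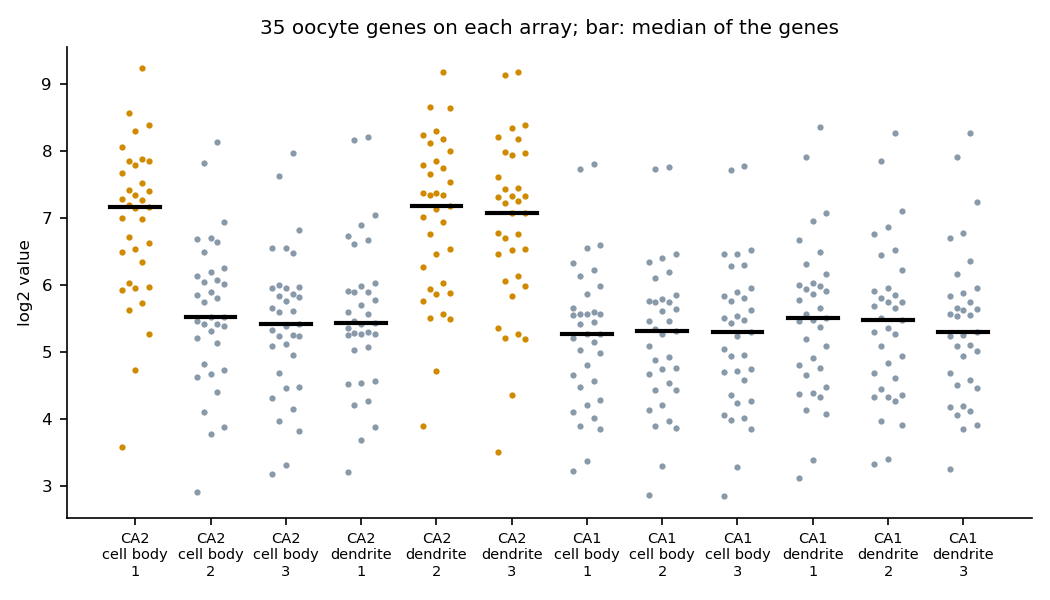
Log2 values of 35 oocyte genes (points) on each of the 12 arrays, with the median of the genes as a black bar. The medians of CA2 cell body array 1 and of CA2 dendritic arrays 2 and 3 (orange) are 7.17, 7.18 and 7.08, and those of the other 9 arrays lie between 5.26 and 5.52.

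Other array-wide measures moved with the layer. The 4 features named for the poly-A controls dap, thr, phe and lys averaged 9.39 to 9.66 on the dendritic arrays and 8.53 to 8.72 on the cell body arrays. The 4 hybridization controls averaged 12.38 to 12.64 and 12.09 to 12.16. Negative control features read 4.93 to 4.96 on the dendritic arrays and 4.74 to 4.82 on the cell body arrays. Positive control features were lower on the dendritic arrays, at 9.13 to 9.19 against 9.31 to 9.34, and ERCC control features at 5.21 to 5.26 against 5.27 to 5.30. Background probes overlapped between the layers. The part of these controls in the results was not tested. Along the first principal component, which held 82.2% of the variance of all genes, the 6 arrays separated by layer.

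Of 30142 genes tested, 11135 were called at an adjusted p under 0.05, 36.9% of them all: 5272 higher in the dendritic layer (17.5%) and 5863 lower (19.5%). A difference of at least 2-fold was called for 988 genes in the dendritic direction (3.28%) and for 777 in the cell body direction (2.58%). The median difference of all genes was -0.03 on the log2 scale. Without the 3 arrays with oocyte transcripts, 2624 genes were called higher (8.71%) and 2657 lower (8.81%). Of the 1765 genes called at 2-fold or more, all 1765 kept their sign in that fit and 1656 remained called.

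**Figure D2:**
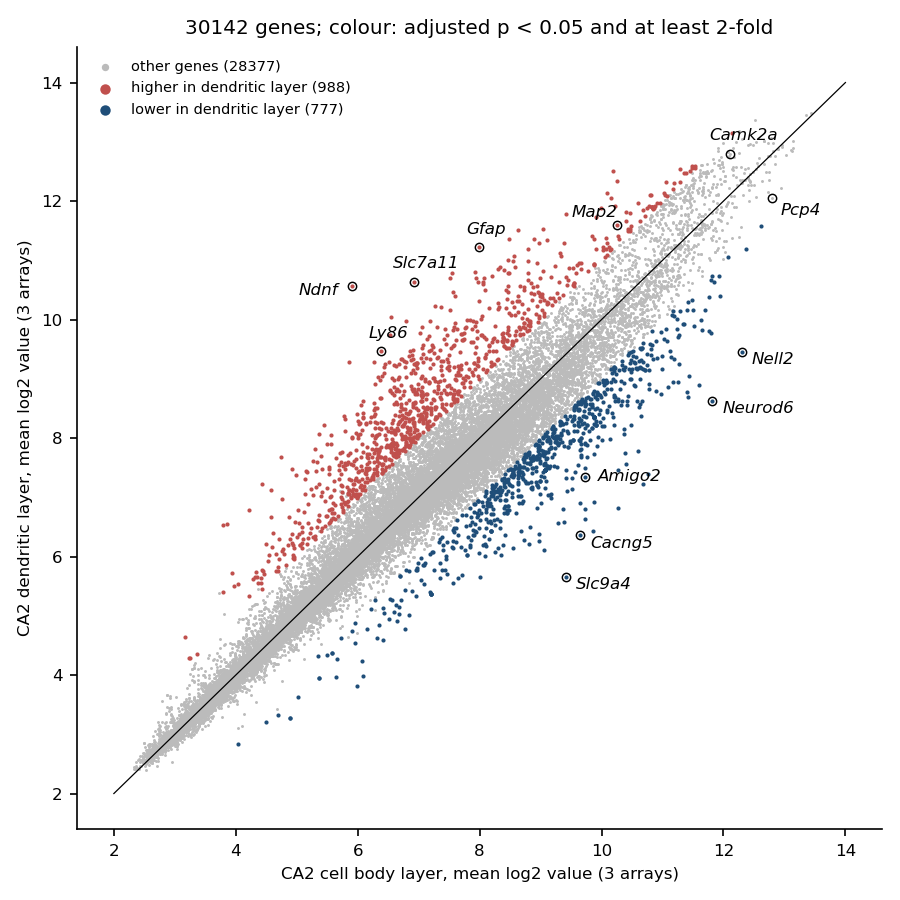
Mean log2 value of 30142 genes in the CA2 cell body layer (horizontal) and dendritic layer (vertical), 3 arrays each, with the line of equal values. Red and blue mark the 988 genes called at least 2-fold higher and the 777 called at least 2-fold lower in the dendritic layer.

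The 12 largest named rises included markers of astrocytes, microglia, smooth muscle and neurons outside the pyramidal layer. Ndnf, a secreted factor made by neurogliaform and Cajal-Retzius cells, read 5.81, 5.64 and 6.28 on the cell body arrays and 10.62, 10.45 and 10.61 on the dendritic arrays. The dendritic arrays lay above all cell body arrays, by 4.65 on the log2 scale or 25.1-fold (SE 0.15, adjusted p = 8.0e-07). Slc7a11, the cystine-glutamate exchanger that astrocytes use to take up cystine, followed with values of 7.10, 6.52 and 7.13 against 10.79, 10.55 and 10.54, a rise of 3.71. Igfbp5, a binding protein of insulin-like growth factors, rose by 3.49, from 6.33, 6.76 and 6.56 to 10.0, 10.21 and 9.90. Gfap, which forms the intermediate filaments of astrocytes, was higher by 3.24 and went from 7.83, 8.20 and 7.92 to 11.05, 11.49 and 11.14. Ly86, an immune receptor partner made by microglia, rose by 3.08, from 6.30, 6.44 and 6.42 to 9.40, 9.49 and 9.52. In each of these genes the lowest dendritic array lay more than 2 log2 units above the highest cell body array.

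Of the other 7 of these 12, Mgp, an inhibitor of vessel calcification, rose by 3.24, but without the 3 arrays with oocyte transcripts its adjusted p was 0.0766 at a difference of 3.66. Acta2, the actin of smooth muscle, rose by 3.20, and Slco1a4, an organic anion transporter of the blood-brain barrier, by 3.18. Scrg1 rose by 3.18, Ifitm3, an interferon-induced membrane protein, by 2.97, Cdh19, a cadherin, by 2.93 and Lcat, which esterifies cholesterol on lipoproteins, by 2.91. The 12 were taken from genes without overlap between the layers, which held for 6534 of all genes in this direction (21.7%).

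The 12 largest falls included the pyramidal neuron markers Neurod6, Cacng5 and Spink8. Slc9a4, a sodium-proton exchanger, read 9.42, 9.37 and 9.44 on the cell body arrays and 6.03, 5.76 and 5.20 on the dendritic arrays, a fall of 3.75 on the log2 scale (SE 0.18, adjusted p = 3.4e-06). Tafa1, a secreted chemokine-like protein, fell by 3.47, from 10.73, 10.70 and 10.63 to 7.29, 7.41 and 6.95. Gpr22, an orphan receptor, fell by 3.45, from 10.36, 10.18 and 10.28 to 7.09, 6.86 and 6.51. Ptgs2, the inducible cyclooxygenase, fell by 3.44, from 9.93, 9.79 and 9.87 to 6.41, 6.65 and 6.22. In these 4 genes the cell body arrays lay closer together than the dendritic arrays. Spink8 fell by 3.36, the AMPA receptor auxiliary subunit Cacng5 by 3.28, and Neurod6, a transcription factor of excitatory forebrain neurons, by 3.18. Zdhhc23, a palmitoyltransferase, fell by 3.09, the potassium channel subunits Kcna4 and Kcnv1 by 2.96 and 2.94, Olfml2b by 2.93 and the secreted protein Nell2 by 2.84. The 12 were again taken from genes without overlap, which held for 7733 of all genes in this direction (25.7%).

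**Figure D3:**
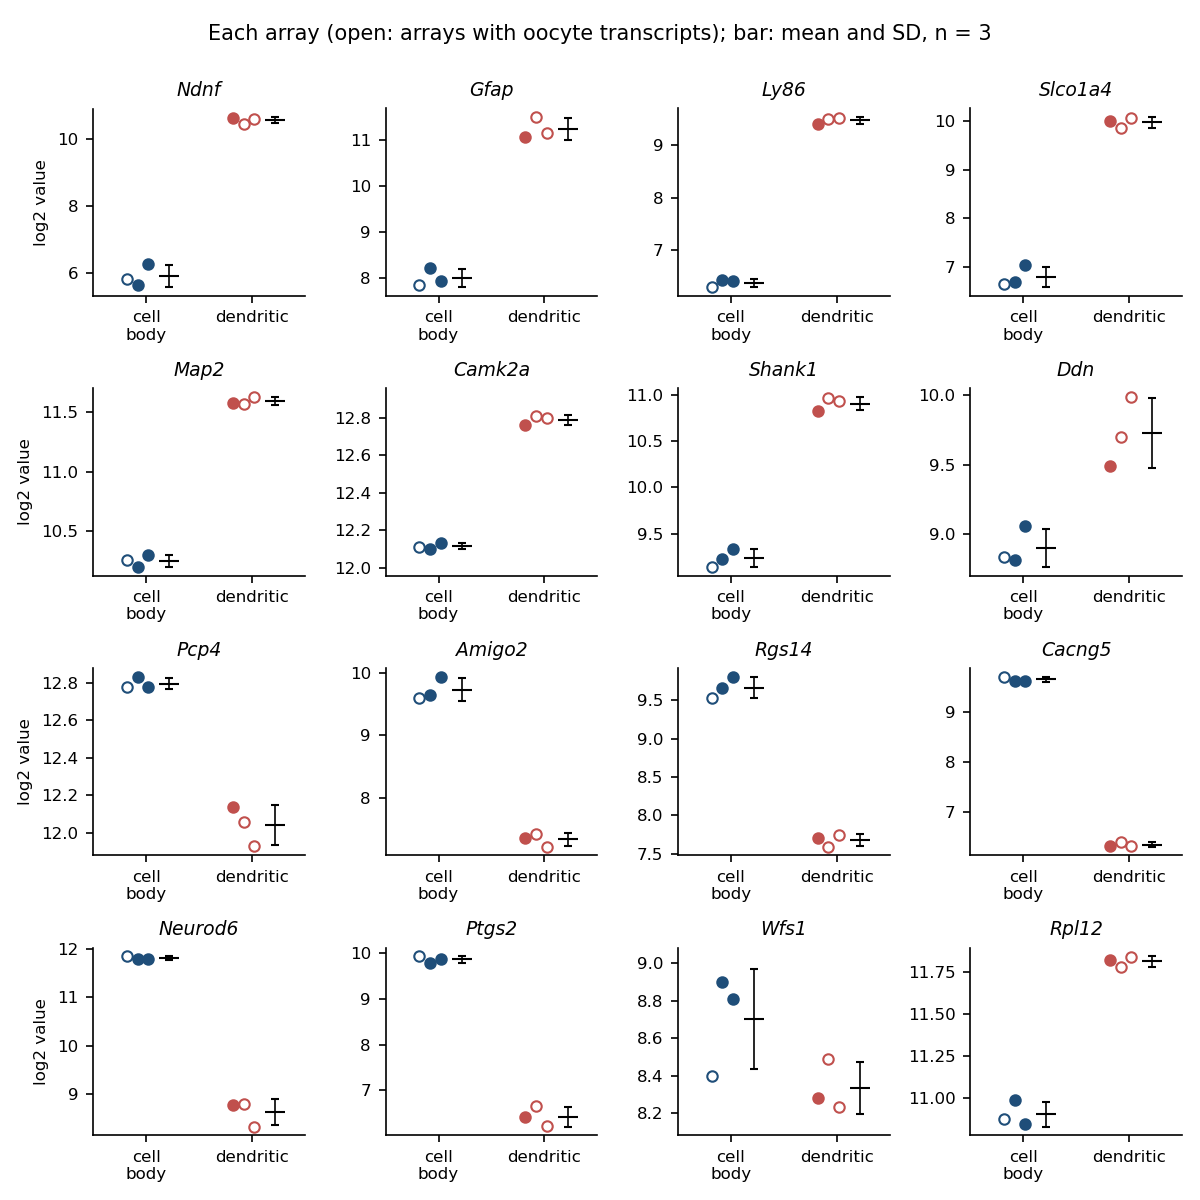
Log2 values of 16 genes on each array of the CA2 cell body layer (blue) and dendritic layer (red), with each group's mean and SD (n = 3). Open points are the 3 arrays with oocyte transcripts. Ndnf, Gfap, Ly86, Slco1a4, Map2, Camk2a, Shank1, Ddn and Rpl12 are higher on every dendritic array, the others except Wfs1 are lower on every dendritic array, and the layers overlap in Wfs1.

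Markers of non-neuronal cells were higher in the dendritic layer almost throughout. Of 109 measured markers in 7 lists (astrocytes, microglia, oligodendrocytes, their precursors, endothelium, pericytes and smooth muscle, perivascular fibroblasts), 105 rose and 0 fell, with a median difference of 1.59 on the log2 scale. Among all genes, 17.5% rose. Without the oocyte-positive arrays 91 of the 109 rose and 0 fell, against 8.71% and 8.81% of all genes. All 20 astrocyte markers rose, with a median of 1.60. Their summed log2 value was 160.2 to 161.6 on the cell body arrays and 194.5 to 196.0 on the dendritic arrays. The glutamate transporters Slc1a3 and Slc1a2 rose by 2.56 and 2.08, the lipid phosphatase Plpp3 by 2.32 and Aldoc, the brain form of aldolase, by 1.91. All 19 microglial markers rose, with a median of 2.10, and their sum went from 130.2 to 130.8 up to 165.2 to 165.7. The purinergic receptor P2ry12, which steers microglial processes, rose by 2.51, and the receptors Cx3cr1 and Csf1r each by 2.29. All 15 oligodendrocyte markers rose, with a median of 1.50, led by the cytoskeletal protein Ermn at 2.49 and with Mbp, the main protein of compact myelin, at 1.15. Of 11 precursor markers 10 rose, among them Lhfpl3 by 2.31 and Gpr17 by 2.06. All 17 endothelial markers rose (median 1.99), among them the thyroid hormone transporter Slco1c1 by 2.80, Ly6c1 by 2.63 and the drug efflux pump Abcb1a by 2.47. In tissue pieces, fewer cells of a type and less RNA of a gene per cell cannot be told apart, and the part of these cells in the results for shared genes was not tested.

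Neurons of the layer other than pyramidal cells were visible too, where 17.5% of all genes rose and 19.5% fell. Of 23 interneuron markers, 16 rose and 2 fell, with a median of 0.76, and their summed log2 value was 176.7 to 178.9 on the cell body arrays and 197.4 to 199.0 on the dendritic arrays. Gad1, which makes the transmitter GABA, read 8.45, 8.53 and 8.55 on the cell body arrays and 10.02, 10.05 and 10.17 on the dendritic arrays, a rise of 1.57. Gad2, its sister enzyme, rose by 1.91 and the neuropeptide gene Npy by 2.01. Reln, the extracellular protein of Cajal-Retzius and neurogliaform cells, rose by 2.66, from 6.30, 6.37 and 6.51 to 9.21, 8.87 and 9.08, and the transcription factor Maf by 1.72. The receptor tyrosine kinase gene Kit fell by 1.82, from 9.16, 9.01 and 9.10 to 7.32, 7.12 and 7.37. The peptide gene Cck, which pyramidal cells also transcribe, fell by 1.41. Both fell on every dendritic array, against the direction of the other called members. With the oocyte-positive arrays left out, 11 rose and 2 fell. Of 8 ependymal and choroid plexus markers 0 rose, and Enkur fell by 1.56, a call that ended without the 3 oocyte-positive arrays (-1.38). Some of these markers varied widely within a layer. Ttr read 9.59, 7.28 and 11.88 on the cell body arrays and 9.29, 12.15 and 10.16 on the dendritic arrays, and was not called. The part of this variation in the results was not tested.

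Because markers of other fields also fell (Npy2r of CA3 by 2.75), a fall between layers cannot check the region label. The layer labels of the pieces were set beside markers of CA2 pyramidal neurons. Of 19 such markers, 16 fell in the dendritic layer and 3 rose, with a median of -1.08, while 19.5% of all genes fell. Amigo2, the adhesion molecule after which the mouse line is named, read 9.60, 9.65 and 9.94 on the cell body arrays and 7.36, 7.43 and 7.22 on the dendritic arrays, a fall of 2.39 (SE 0.10, adjusted p = 2.0e-06). Rgs14, a regulator of G protein signalling that restrains plasticity in CA2, fell by 1.99, from 9.53, 9.66 and 9.81 to 7.70, 7.59 and 7.74. Map3k15 fell by 2.40, the secreted Wnt and BMP antagonist Sostdc1 by 2.56, and Acan, the core protein of perineuronal nets, by 1.53. Avpr1b, the vasopressin receptor of CA2, fell by 1.24, from 7.00, 7.19 and 7.09 to 5.87, 5.84 and 5.84. Pcp4, a calmodulin-binding protein and abundant CA2 marker, fell far less, by 0.75, from 12.78, 12.83 and 12.78 to 12.14, 12.06 and 11.93. The matrix proteoglycan gene Vcan, which is also on the oligodendrocyte precursor list, rose by 0.58. Tgfb1i1 rose by 0.48, a call that ended without the 3 oocyte-positive arrays (0.41). In that fit 16 of the 19 fell and 1 rose.

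The same markers were set against CA1, whose layers were arrayed in another run. A run shift that is equal in both layers cancels in the difference between the layer differences, which was tested over all 12 arrays. In CA1 the median difference of the 19 markers was 0.22, with 10 called higher and 3 lower. The CA2 layer difference was called below that of CA1 for 18 of the 19 and above it for 0. Of all genes, 14.6% were called in either direction. Sez6, a seizure-related membrane protein, was the exception, with -1.08 in CA2 and -1.39 in CA1. With the oocyte-positive arrays left out of that fit, 17 of the 19 were called below CA1. Cacng5 differed by -3.28 between the layers of CA2 and by -0.16 between those of CA1, a difference of -3.12 (SE 0.13, adjusted p = 2.4e-07). For Amigo2 the layer differences were -2.39 and 0.13. For Pcp4 they had opposite signs, -0.75 in CA2 and 2.21 in CA1, and differed by -2.97 (adjusted p = 1.0e-04). The 19 genes were listed as markers of CA2 neurons, so little or no fall in CA1 could follow from that choice alone. The count does not show how RNA is distributed within neurons of either region.

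**Figure D4:**
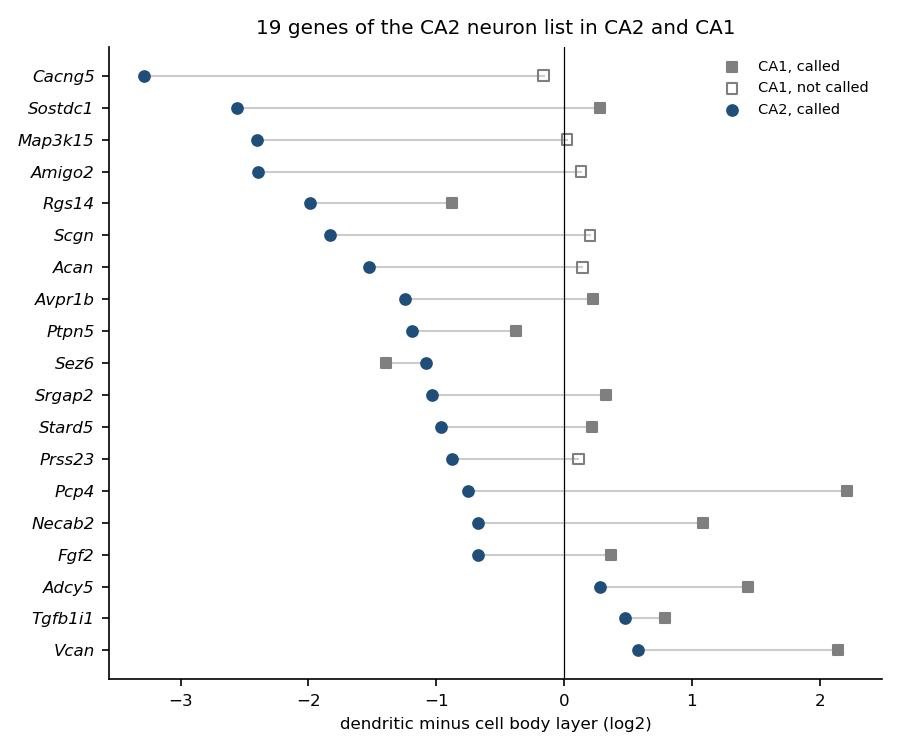
Dendritic minus cell body difference (log2) of the 19 CA2 neuron markers in CA2 (blue circles) and in CA1 (grey squares). Open symbols were not called. For 18 of the 19 the CA2 difference was called below that of CA1, with Sez6 as the exception.

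Markers of the neighbouring fields gave mixed results, where 17.5% of all genes rose and 19.5% fell. Of 11 CA1 markers 4 fell and 2 rose. Spink8 fell by 3.36, from 10.79, 10.81 and 10.68 to 7.82, 7.26 and 7.12, so that it was bright in the CA2 cell body layer. Wfs1, which marks CA1 pyramidal cells, read 8.40, 8.90 and 8.81 on the cell body arrays and 8.28, 8.49 and 8.23 on the dendritic arrays. The groups overlapped and the difference of -0.37 was not called (adjusted p = 0.0675), nor was that of Fibcd1, -0.28 (0.0683), or of Pou3f1, -0.05 (0.715). Without cell body array 1 the values of Wfs1 and Fibcd1 were -0.52 and -0.39 and both were called (adjusted p = 0.00593 and 0.0111). Dcn rose by 2.26. It is also on the list of perivascular fibroblast markers, of which 12 of 14 rose, Dcn included. Which cells its RNA came from was not tested. Of 11 CA3 markers 5 fell and 1 rose. The neuropeptide Y receptor Npy2r fell by 2.75, Cpne4 by 2.02, the granule protein Chgb by 2.01 and Mas1 by 2.01. Of 10 dentate granule cell markers 4 rose and 2 fell. Dock10 read 6.20, 6.43 and 6.21 against 8.28, 8.25 and 8.26, a rise of 1.98, and the transcription factor Prox1, which interneurons of the outer layers also express, rose by 1.36 (adjusted p = 0.117 without the 3 oocyte-positive arrays). In that fit 1 CA1 marker rose and 2 fell, 5 CA3 markers fell, and 3 dentate markers rose and 1 fell.

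RNAs known from dendrites moved in both directions. Of 43 measured genes on a list of dendritically localized mRNAs, 23 rose and 16 fell, with a median of 0.34, where 17.5% of all genes rose and 19.5% fell at a median of -0.03. The fit without the oocyte-positive arrays called 14 higher and 10 lower. Of the 43, 0 are on a cell type list, and whether other cells of the layer also hold their RNA was not tested. Map2, Camk2a, Shank1, Kif5a and Ddn were among those that rose. Map2, the microtubule-associated protein of dendrites, read 10.26, 10.20 and 10.30 on the cell body arrays and 11.58, 11.57 and 11.63 on the dendritic arrays, a rise of 1.34 (SE 0.06, adjusted p = 2.0e-06). Camk2a, the kinase subunit of the postsynaptic density, rose by 0.68, from 12.11, 12.10 and 12.13 to 12.76, 12.81 and 12.80, a rise that was 0.42 after quantile normalization. Shank1, a master scaffold of the spine, rose by 1.67, from 9.14, 9.23 and 9.33 to 10.82, 10.96 and 10.93, and the kinesin gene Kif5a by 1.50. Ddn, a postsynaptic protein named dendrin, rose by 0.83, from 8.83, 8.81 and 9.06 to 9.49, 9.70 and 9.99, but its adjusted p was 0.127 without the 3 oocyte-positive arrays. The dendritic arrays lay above the cell body arrays in all 5. Other members went the opposite way. Nrgn, a calmodulin-binding protein of spines, fell by 1.44, from 11.26, 11.33 and 11.47 to 9.96, 10.09 and 9.70. Gria2, the AMPA receptor subunit that blocks calcium, fell by 1.15, and the proteoglycan gene Spock1 by 1.20. Arc, an immediate early RNA that moves to active dendrites, read 8.15, 8.38 and 8.35 against 8.38, 8.29 and 8.33, which overlap, and its difference of 0.04 was not called (adjusted p = 0.729).

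RNAs listed here as cell body mRNAs moved one way, where 19.5% of all genes fell and 17.5% rose. Whether each of these RNAs stays in the soma was not tested. Of 21 such genes 19 fell and 0 rose, with a median of -0.77, and 17 fell without the oocyte-positive arrays. Crym, a thyroid hormone-binding protein, fell by 2.24, from 9.57, 9.79 and 9.83 to 7.54, 7.48 and 7.44. Uchl1, a neuronal ubiquitin hydrolase, fell by 1.45, Stmn2, a regulator of axonal microtubules, by 1.23 and Tubb2a by 1.19.

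Within the postsynaptic density the scaffolds split by gene. Of 32 scaffold genes 11 rose and 16 fell (median -0.16). Shank3 rose by 0.74, from 7.35, 7.45 and 7.40 to 8.11, 8.15 and 8.16, beside Shank1. Baiap2, which links scaffolds to actin, fell by 1.60, Dlg3 (SAP102) by 1.23 and Homer1 by 1.16. Receptor genes moved in both directions, where 17.5% of all genes rose and 19.5% fell. Of 16 ionotropic glutamate receptor genes 4 rose and 7 fell. The NMDA receptor subunits Grin2a and Grin2b fell by 2.09 and 1.96, and the layers did not overlap: Grin2a read 10.59, 10.62 and 10.65 against 8.61, 8.59 and 8.39. The kainate subunit Grik1, which is known from interneurons and glial precursors, rose by 1.69 and the NMDA subunit Grin3a by 1.22. Of 5 metabotropic receptor genes, Grm3, an astrocyte receptor, rose by 2.80, from 7.22, 7.12 and 7.21 to 9.92, 10.01 and 10.02. Grm7 fell by 1.87 and Grm5 by 1.52. Of 12 GABA receptor genes 2 rose and 5 fell. Gabra5, which carries tonic inhibition in hippocampal pyramidal cells, fell by 1.96 and the GABA-B subunit Gabbr2 by 1.41, while Gabrg1, a subunit found in astrocytes, rose by 1.86. Without the oocyte-positive arrays 6 scaffold genes rose and 8 fell, 3 ionotropic receptor genes rose and 6 fell, 1 metabotropic receptor gene rose and 2 fell, and 1 GABA receptor gene rose and 4 fell.

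Ion channel genes fell more often than they rose, where 19.5% of all genes fell and 17.5% rose. Of 21 voltage-gated sodium and calcium channel genes 17 fell and 1 rose, with a median of -0.90. The R-type calcium channel gene Cacna1e fell by 2.63, from 10.39, 10.31 and 10.44 to 7.82, 7.80 and 7.64. The auxiliary subunit Cacna2d3 fell by 2.30, and the sodium channels Scn8a and Scn2a by 1.65 and 1.56. Cacna2d2 was the member that rose, by 0.60. Of 52 potassium and HCN channel genes 25 fell and 7 rose (median -0.25). Kcnd2, the A-type channel that damps dendritic excitation, fell by 2.23, the G protein-gated channel Kcnj3 by 2.04 and the M-type channel Kcnq5 by 1.95. Kcnj10, the potassium-buffering channel of astrocytes, rose by 2.07, from 8.44, 8.35 and 8.51 to 10.51, 10.52 and 10.49. Kcnn3, a calcium-activated channel, rose by 0.95. On the 3 oocyte-free arrays, 16 sodium and calcium channel genes fell and 1 rose, and 16 potassium and HCN channel genes fell and 4 rose.

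Presynaptic, adhesion and transport genes also fell more often than they rose, where 19.5% of all genes fell and 17.5% rose. Of 41 genes of synaptic vesicles and release, whose proteins are sent into axons, 28 fell and 5 rose, with a median of -0.50. Sv2b, a vesicle protein, fell by 2.72, the active zone protein gene Ppfia2 by 1.61, Napb by 1.23 and the lipid phosphatase gene Synj1 by 1.21. Rab3b, a vesicle GTPase, rose by 0.93. Of 18 Eph receptor and ephrin genes 8 fell and 2 rose. Epha4 fell by 2.74, from 11.44, 11.42 and 11.41 to 8.67, 8.85 and 8.54, and Epha7, Epha6 and Epha5 by 2.26, 1.79 and 1.65. Of 22 kinesin and dynein genes 15 fell and 2 rose (median -0.55). Kifap3 and Kif3a, which form kinesin-2, fell by 1.32 and 0.94, and the dynein intermediate chain gene Dync1i1 by 1.35, against the rise of Kif5a. Of 29 genes of microtubules and actin 21 fell and 4 rose. Tuba4a fell by 1.19, while Map1a, like Map2 a protein that binds dendritic microtubules, rose by 0.49, from 8.76, 8.69 and 8.68 to 9.30, 9.19 and 9.11. On the 3 oocyte-free arrays, 20 vesicle genes fell and 2 rose, 5 Eph and ephrin genes fell, 13 motor genes fell and 1 rose, and 18 cytoskeletal genes fell and 2 rose.

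Transcription factors, immediate early genes, RNA processing genes and nuclear RNAs were taken as 4 lists, where 17.5% of all genes rose and 19.5% fell. Of 31 pyramidal transcription factor genes 20 fell and 8 rose, with a median of -0.36. Besides Neurod6, the mineralocorticoid receptor gene Nr3c2 fell by 1.72 and the repressor gene Zbtb18 by 1.47. Id2, an inhibitor of bHLH factors that glia and neurogliaform cells express as well, rose by 2.54, from 8.45, 8.53 and 8.40 to 10.93, 11.04 and 11.02. Of 23 immediate early genes 13 fell and 2 rose. After Ptgs2 the kinase gene Plk2 fell by 1.82, Nptx2 by 1.40 and the zinc finger factor gene Egr1 by 1.36, while Jun rose by 0.62. Of 51 genes of RNA processing 20 fell and 6 rose. The neuronal splicing factor genes Rbfox1 and Rbfox3 fell by 1.43 and 0.98. Of 8 nuclear non-coding RNAs 3 fell and 2 rose, with a median of -0.14. Peg13 fell by 0.75 and Miat by 0.48. The nuclear RNA Neat1, which builds paraspeckles, rose by 0.88, from 6.38, 6.47 and 6.53 to 7.28, 7.33 and 7.40. Malat1, a nuclear RNA of all cell types, rose by 0.34. That rise was 0.05 after quantile normalization (adjusted p = 0.581) and 0.29 without the 3 oocyte-positive arrays (adjusted p = 0.127). In the latter fit 13 transcription factor genes fell and 3 rose, 8 immediate early genes fell and 1 rose, 10 RNA processing genes fell, and 3 nuclear RNAs fell and 1 rose.

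Genes of the cytosolic ribosome were higher in the dendritic layer as a body. Of 35 ribosomal protein genes with a value, from 80 on the list, 34 rose and 0 fell, with a median of 0.54, while 17.5% of all genes rose. Rpsa, the laminin receptor protein of the small subunit, read 8.79, 8.81 and 8.79 on the cell body arrays and 9.80, 9.96 and 9.94 on the dendritic arrays, a rise of 1.10 (SE 0.06, adjusted p = 6.7e-06). Rpl12 rose by 0.91, from 10.88, 10.99 and 10.85 to 11.82, 11.78 and 11.84, Rps15 by 0.89 and Rpl35 by 0.85. All 4 had no overlap. Ribosomal protein genes are expressed in every cell, glia included. In the fit without the 3 oocyte-positive arrays 18 of the 35 were called, at a median of 0.54.

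Translation factors divided. Of 41 genes 10 rose and 19 fell (median -0.18). Eef2, which moves the ribosome along the RNA, rose by 1.02, from 11.01, 11.03 and 11.16 to 12.02, 12.12 and 12.12. Of the 6 measured elongation factor genes 5 rose and 1 fell. Eif3f, a subunit of the initiation factor eIF3, rose by 0.90 and Pabpc1, which binds the poly(A) tail, by 0.75. On the 3 oocyte-free arrays, 4 translation factor genes rose and 9 fell, and 1 elongation factor gene rose and 1 fell. The subunits of eIF2B, the exchange factor that recharges initiation and is the target of the integrated stress response, went the other way: 4 of 5 fell, with differences from -0.67 for Eif2b1 to -0.26. On those arrays 3 fell, and Eif2b1 had an adjusted p of 0.053. Eif2b3 fell by 0.64, from 7.80, 7.79 and 7.92 to 7.10, 7.27 and 7.21.

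Ribosomal protein and elongation factor RNAs are known to begin with a C and a run of pyrimidines, the 5′-terminal oligopyrimidine tract through which growth signals control their translation. The annotated starts of 6 of the genes named above are shown because this tract is the sequence that such RNAs are known to share. Pabpc1 and Eif2b3 are not shown. Each line gives 10 bases before the start and 20 from the start on, from RefSeq on GRCm38.p6, read 5′ to 3′ on the gene's strand. Capitals mark a C followed by at least 5 bases that are C or T, marked from the C nearest to the start within 5 bases of it. The bases just before the marked run are also pyrimidines in Rpl35 and Eif3f and stay in lower case. The search was made on the gene's strand alone. Rpl12 lies at chr2:32961702-32961731 (plus), Rpl35 at chr2:39005112-39005141 (minus), Rpsa at chr9:120127756-120127785 (plus), Rps15 at chr10:80292421-80292450 (plus), Eef2 at chr10:81176621-81176650 (plus) and Eif3f at chr7:108934405-108934434 (plus).
Rpl12: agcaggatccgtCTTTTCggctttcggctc
Rpl35: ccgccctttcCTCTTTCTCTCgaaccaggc
Rpsa: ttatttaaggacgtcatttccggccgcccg
Rps15: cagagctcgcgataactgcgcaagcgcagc
Eef2: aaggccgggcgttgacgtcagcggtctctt
Eif3f: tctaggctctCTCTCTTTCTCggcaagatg

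A run was found in 3 of these 6 windows. Of 30 ribosomal protein genes with an entry, 11 had one, 36.7%, against 11.8% of the 17970 genes with an entry. Their median difference was 0.57 with the run and 0.52 without it. Among translation factors 6 of 30 had a run, and these included Eif3f and Eef1a1, which rose, and Eif2b5 and Eif2b2, which fell (without the arrays numbered 3, Eif2b5 had an adjusted p of 0.0849 at -0.33). The rise of Eef1a1, 0.34, was 0.12 after quantile normalization (adjusted p = 0.112) and had an adjusted p of 0.0579 without the oocyte-positive arrays. Over all genes the median difference was -0.03 with a run and -0.04 without. An annotated start can lie some bases from the start used in these cells, so an absent run says only that these letters are not in this window.

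Genes of the proteasome and of the mitochondrial ribosome were lower in the dendritic layer by count, where 19.5% of all genes fell and 17.5% rose. Of 31 proteasome genes 30 fell and 0 rose, within a narrow range of differences from -0.66 to -0.06 (median -0.41). Psmc4, an ATPase of the proteasome base, read 9.56, 9.65 and 9.65 on the cell body arrays and 9.01, 8.95 and 8.92 on the dendritic arrays, a fall of 0.66. In the fit without the 3 oocyte-positive arrays 14 of the 31 were called. Of 55 genes of protein processing in the ER and Golgi 24 fell and 5 rose, among them the mannosidase gene Man1a2, which fell by 0.88, and P4hb, a disulfide isomerase, which rose by 0.51. The mitochondrial ribosome was represented by 75 genes, of which 48 fell and 3 rose (median -0.35). Mrpl22 fell by 0.89 and Mrpl19 by 0.81, from 8.40, 8.55 and 8.50 to 7.69, 7.69 and 7.64. Without the oocyte-positive arrays 9 ER and Golgi genes fell and 2 rose, and 16 mitochondrial ribosomal protein genes fell. Cytosolic and mitochondrial ribosomal protein genes thus had medians of opposite sign, 0.54 and -0.35.

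Genes of energy metabolism were taken as 3 lists. Of 72 genes of the respiratory chain and ATP synthase 16 rose and 19 fell, with a median of 0.01 (-0.07 after quantile normalization), beside 17.5% and 19.5% of all genes. Of the 10 cytochrome oxidase genes 6 rose and 1 fell, and 5 rose and 1 fell after quantile normalization. Ndufb9, a subunit of complex I, rose by 0.73, from 11.38, 11.47 and 11.37 to 12.01, 12.21 and 12.20, and the oxidase subunit gene Cox8a by 0.62. After quantile normalization these rises were 0.49 and 0.37. Ndufs1, the largest subunit of complex I, fell by 0.51, from 10.03, 10.01 and 10.04 to 9.56, 9.48 and 9.52. Of 21 tricarboxylic acid cycle genes 16 fell and 2 rose (median -0.34). Idh3a, the NAD-dependent isocitrate dehydrogenase subunit, fell by 1.14 and Dlat by 0.86, while Suclg2, the GTP-forming succinyl-CoA ligase, rose by 2.22, from 6.77, 6.91 and 6.92 to 8.92, 9.25 and 9.10. Of 14 glycolysis genes 10 fell and 2 rose. Eno2, the neuronal enolase, fell by 1.03 and Pfkl by 1.01, against the rise of Aldoc, an astrocyte enzyme. On the 3 oocyte-free arrays, 7 respiratory chain genes rose, 4 of them oxidase genes, and 4 fell. In the cycle 7 then fell and 1 rose, and in glycolysis 9 fell and 1 rose.

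Genes that place mitochondria and load them with calcium were both higher and lower, where 17.5% of all genes rose and 19.5% fell. Of 20 genes 10 fell and 6 rose, or 4 and 3 without the oocyte-positive arrays. Mcu, the pore of the mitochondrial calcium uniporter, read 8.20, 8.33 and 8.46 on the cell body arrays and 7.20, 7.15 and 7.19 on the dendritic arrays, a fall of 1.15 (adjusted p = 1.4e-05). Between the layers of CA1 it differed by -0.16, and the layer differences of the regions differed by -0.99 (SE 0.11, adjusted p = 1.3e-04). Micu3, a neuronal enhancer of the uniporter, fell by 1.11 and by a similar 1.22 in CA1, and the difference of 0.11 was not called (adjusted p = 0.645). Rhot1, the Miro adaptor that couples mitochondria to kinesin, fell by 0.80. Mfn1, a fusion GTPase, rose by 1.23, from 8.61, 8.63 and 8.70 to 9.79, 9.91 and 9.93, and Snph, which docks mitochondria on microtubules, rose by 0.50 (adjusted p = 0.0536 without the 3 oocyte-positive arrays).

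Secreted and matrix genes fell into opposed groups, where 17.5% of all genes rose and 19.5% fell. Of 20 genes of the matrix and perineuronal net 14 rose and 2 fell (median 0.46). With the oocyte-positive arrays left out, 8 rose and 2 fell. The 2 that fell were Acan and Hapln4, a link protein of perineuronal nets, which read 9.68, 9.75 and 9.76 against 8.38, 8.05 and 8.06, a fall of 1.57. Hapln1, another link protein, rose by 2.25, from 7.37, 7.53 and 7.37 to 9.69, 9.58 and 9.75. Ptprz1, a receptor phosphatase of astrocytes and glial precursors, rose by 2.51, the collagen-binding protein gene Sparc by 1.91 and the protease inhibitor gene Timp4 by 1.90. Of 27 growth factor, binding protein and other secreted genes 10 rose and 10 fell. The fit without the oocyte-positive arrays called 8 higher and 6 lower. Ndnf and Igfbp5 led the rises. Sostdc1 read 9.14, 9.52 and 9.43 against 6.78, 6.88 and 6.76, a fall of 2.56, and Nptx2, a secreted pentraxin that clusters AMPA receptors, read 8.67, 8.75 and 8.73 against 7.21, 7.35 and 7.38.

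**Figure D5:**
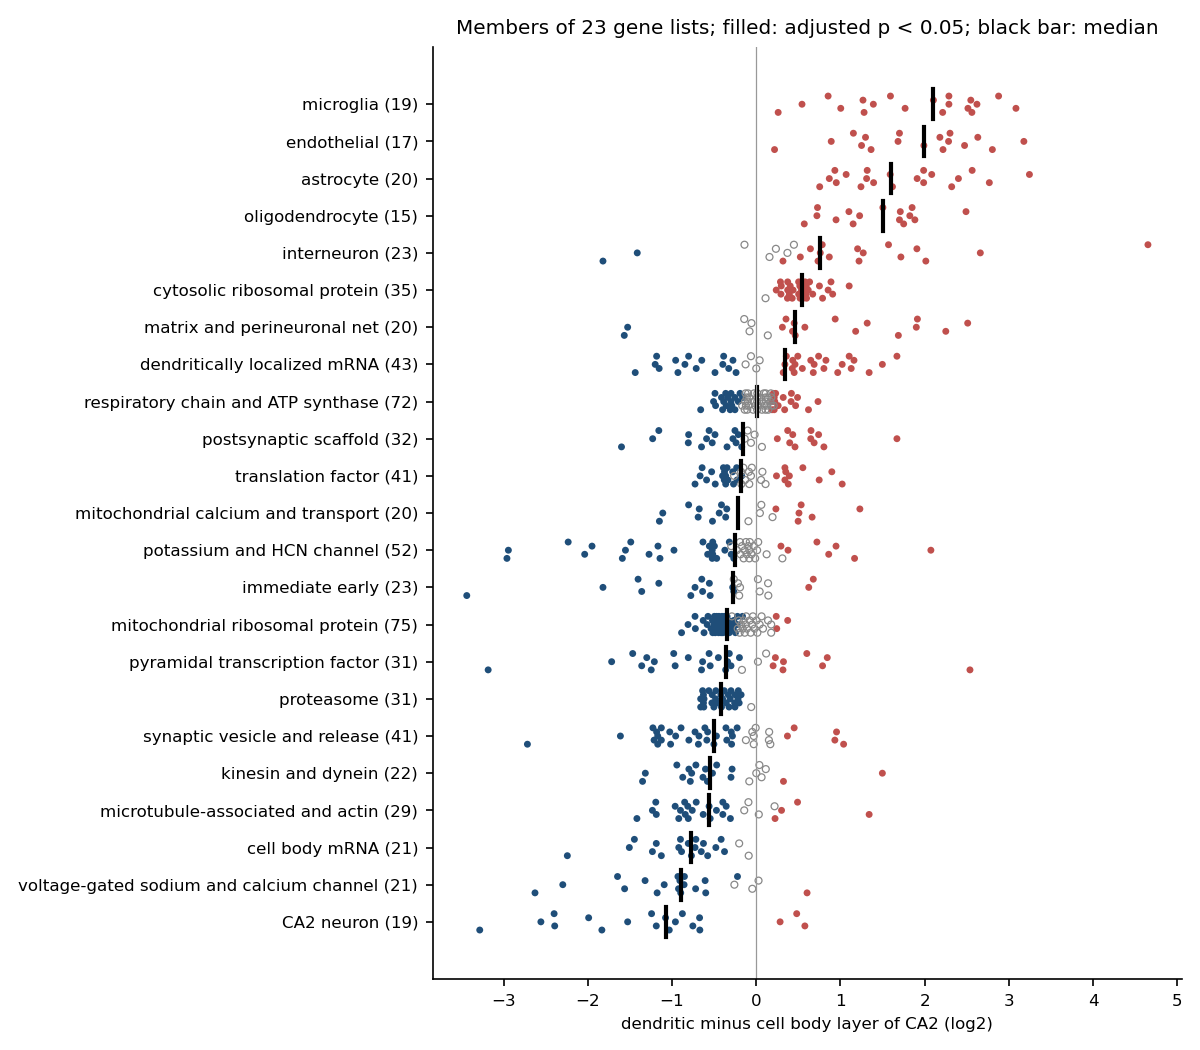
Dendritic minus cell body difference (log2) of the members of 23 gene lists in CA2, ordered by the list's median (black bar). The number of measured members follows each name. Filled points were called at an adjusted p under 0.05, red higher and blue lower in the dendritic layer. The lists of astrocyte, microglia, oligodendrocyte and endothelial genes have medians of 1.50 to 2.10, cytosolic ribosomal proteins 0.54, proteasome genes -0.41 and CA2 neuron markers -1.08.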

How the data were processed

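The deposited table holds log2 expression values that the authors made with RMA (robust multi-array average), per the submitters' processing notes. The software, and whether both runs were normalized together, is not given in the sources used here. RMA equalizes distributions between arrays and compresses large folds, so differences are relative to the array's other genes. Values of different genes were not compared. Of 72688 features, 30604 had 1 gene symbol in the platform annotation. The feature with the highest mean over the 12 arrays was kept per gene, which left 30142 genes. Symbols of 827 features were updated through Entrez identifiers.

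Each gene was tested two-sided with limma 3.58.1 in R 4.3.3 (lmFit, eBayes) on the 6 CA2 arrays with 2 group means and 4 residual degrees of freedom, and Benjamini-Hochberg adjustment over all genes. Calls were made where the adjusted p was below 0.05. "Rose" and "fell" refer to called genes, higher or lower in the dendritic layer. The difference between the layer differences of CA2 and CA1 was fitted on all 12 arrays. Precision is limited by the number of arrays, which give no read depth. The median SD of a gene was 0.07 on the cell body arrays and 0.09 on the dendritic arrays. For this comparison, data with known differences were also simulated for 30142 genes. Of the changed genes, 64 of 66 were called at 2 log2 units and 38 of 68 at 0.5, with 9 false calls. Far fewer genes were changed there than were called in the data, so these shares need not hold for the data.

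The comparison, the gene lists and the rule for named genes were chosen with earlier results of these data known. The rule took the 12 largest called rises and falls without overlap, up to 4 members of each list by p, up to 2 called against the list's median, and 12 fixed genes (Mbp, Gfap, Neurod6, Ddn, Map2, Camk2a, Pou3f1, Fibcd1, Wfs1, Pcp4, Rgs14 and Amigo2). Predicted genes and small RNAs were not named. The text gives a part of these. Avpr1b, Gad2, Npy, Nrgn, Arc, Egr1, Eef1a1, Eif2b1, Eif2b2, Eif2b5, Sez6, Zp3, Bmp15, Nlrp14 and the choice of starts shown were chosen outside the rule or after their values were seen. Alternatives changed the block, arrays, normalization, weights, filter and features. Adding the oocyte arrays as a covariate and leaving out the oocyte genes were chosen after seeing the data.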

Additional observations from a re-analysis of the deposited data

Results flagged for a closer look

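The layer difference of CA2 was set against that of CA1 for 23 named genes: the 12 fixed genes and the named members of the lists of CA2 neuron markers and of mitochondrial calcium and transport genes. It differed in 15 of them in the limma fit over all 12 arrays, with p-values adjusted over all genes, of which 14.6% were called. Values are the CA2 difference minus the CA1 difference on the log2 scale. Both regions were arrayed in runs of their own.

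In 5 CA2 markers the value was lower in the CA2 dendritic layer by a margin that CA1 did not show: Cacng5 (-3.12), Sostdc1 (-2.84), Amigo2 (-2.53), Map3k15 (-2.42) and Acan (-1.67), whose CA1 differences lay between -0.16 and 0.28. They were listed as markers of CA2 neurons, so the lack of a fall in CA1 could follow from that choice alone. Pcp4 gave -2.97 and Rgs14 gave -1.11. Vcan, which is also on the oligodendrocyte precursor list, rose in both regions, by 0.58 in CA2 and 2.14 in CA1, which gave -1.56. Mcu gave -0.99. These 9 calls held in all alternatives run.

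The CA1 markers Wfs1 and Fibcd1 fell between the layers of CA1, by 1.36 and 0.85, and were not called in CA2. Their values were 0.99 and 0.57, with adjusted p of 0.0629 and 0.0769 without the oocyte-positive arrays, and Fibcd1 had 0.0894 after quantile normalization. The other 4 calls were near the threshold. Neurod6 gave -0.61 (adjusted p = 0.029) and lost the call without CA1 cell body array 1 or 3, CA1 dendritic array 2 or any 1 of the CA2 cell body arrays (-0.53 to -0.62), or without the oocyte-positive arrays (-0.46, adjusted p = 0.157). Map2 gave 0.32 (0.0277) and lost it without CA1 cell body array 1 or 2, CA2 cell body array 1 or 2 or CA2 dendritic array 3 (0.29 to 0.33), with the replicate block (adjusted p = 0.0531) and without the oocyte-positive arrays (0.31, adjusted p = 0.203). Tgfb1i1 gave -0.31 (0.0404) and lost it without any 1 of the CA1 cell body arrays, CA1 dendritic array 1, CA2 cell body array 1 or 2 or CA2 dendritic array 1 or 3 (-0.26 to -0.33). It was also lost with the replicate block (adjusted p = 0.0531), after median centring (0.0559) and without the oocyte-positive arrays (-0.38, adjusted p = 0.127). Snph gave -0.35 (0.0405) and lost it without any 1 of the CA1 cell body arrays, CA1 dendritic array 1 or any 1 of the CA2 arrays (-0.30 to -0.38). The replicate block (adjusted p = 0.0554), median centring (0.0662) and leaving out the oocyte-positive arrays (-0.40, adjusted p = 0.177) ended it too.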

How the results depend on the processing

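With 3 arrays per layer, the count of 11135 called genes lay between 8561 and 10619 when 1 array or 1 replicate number was left out, and at 5281 without the 3 oocyte-positive arrays, a fit of fewer samples. The count at 2-fold or more stayed between 1714 and 1913 in all alternatives run, against 1765. With the replicate block 10057 genes were called. The numbers were not taken as pairs: no label ties them to mice, and deviations of same-numbered arrays of the 2 layers correlated at -0.35, -0.15 and -0.24. The part of the oocyte transcripts in these correlations was not tested. Median centring and quantile normalization lowered the median difference of all genes to -0.06. Of 210 called genes in the named set 178 kept call and sign in all alternatives and 0 reversed. Leaving out the oocyte-positive arrays ended 31 of these calls, and other alternatives ended 12.

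The count of genes whose layer difference differed between the regions, 4387, was 1303 without the oocyte-positive arrays and 3504 with the replicate block. It ranged from 2621 (without CA1 cell body array 2) to 6991 (without CA1 dendritic array 3), with 2648 without CA2 cell body array 2. The cause was not tested. Among named genes, signs turned only in differences that were not called. Pou3f1 was 0.05 without the oocyte-positive arrays and -0.12 to 0.02 with arrays left out. Arc ranged from -0.06 to 0.10. Zp3 was -0.15 without the oocyte-positive arrays, -0.09 with them as a covariate, and -0.22 to 1.90 with arrays left out. Bmp15 was -0.07 without them and -0.01 to 2.85 with arrays left out. Between the regions Pou3f1 was -0.02 after quantile normalization, Gfap ranged from -0.17 to 0.07 and Micu3 from -0.03 to 0.23.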
